A study of Mus musculus with 8 samples.

Results

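The adrenergic receptor family was followed through gene expression arrays of mouse brown adipose tissue (BAT). Its members were 8 genes, the β receptors Adrb1 and Adrb3, the α1 receptors Adra1a, Adra1b and Adra1d, and the α2 receptors Adra2a, Adra2b and Adra2c. They were found as every probe whose RefSeq accession belonged to one of these genes, which gave 12 of the 55681 probes on the array, and 11 of the 12 were bright enough to be tested. The array named 21154 genes in all. Male C57BL/6NCrSlc mice, an inbred strain that carried no engineered allele by the labels, received a sham operation (Sham) or thoracic aortic constriction (TAC) at 11 weeks of age. TAC narrows the aorta and loads the left ventricle with pressure. BAT was collected at 13 weeks of age from 4 mice per group, with 1 array per mouse, and the labels name no other treatment of either group. The labels disagreed on when BAT was taken, at 2 weeks by the source name and at 4 weeks by the description, and only the earlier time fits the stated ages. Scanner intensities were used for 3 Sham arrays (replicates 2, 3 and 4) and 4 TAC arrays (replicates 1 to 4), and Sham replicate 1 was read from the authors' table of all 8 arrays.

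Adrenergic receptors bind noradrenaline, which sympathetic nerves release in BAT, and adrenaline from the circulation. The β receptors couple to the stimulatory G protein, raise cyclic AMP through adenylyl cyclase and so drive lipolysis and heat production in brown adipocytes. The α1 receptors act through Gq and phospholipase C, and the α2 receptors act through the inhibitory G protein, which lowers cyclic AMP.

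Levels are given on a log2 scale as the intensity of a probe over the 75th percentile of its array, so that a difference of 1 is a change by a factor of 2. Testing required a probe to stand well above background on 3 or more of the 7 scanner arrays. TAC and Sham were compared with limma, a linear model that shares its estimate of spread among probes, with Benjamini-Hochberg adjustment over 33364 probes. None of them passed an adjusted p of 0.05 (0%), the lowest value being 0.0575. Before adjustment, 8.43% of the probes were lower and 4.38% were higher after TAC at a p under 0.05, and the median difference over all probes was -0.03. TAC replicate 1 stood apart, at 89.6 on the first principal component against values between -32.6 and 3.58 on the other 6 arrays, and results are therefore also given without it. The Sham arrays lay in the first row of the slide and the TAC arrays in the second, so surgery and place on the slide cannot be told apart. Because BAT is a mixture of cells, fewer cells of a type and less RNA per cell cannot be told apart either.

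The tissue label was checked against markers. Ucp1, the uncoupling protein that defines brown adipocytes, ranged from 9.40 to 9.70 in Sham BAT and from 8.37 to 9.22 in TAC BAT, and all 11 brown adipocyte markers were bright enough to be tested. The skeletal muscle markers were detected as well, and their mean varied among arrays of both groups, from -0.96 to 0.94 around the Sham mean on Sham arrays and from -0.70 to 1.71 on TAC arrays.

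All 4 probes of the β receptors were lower on average after TAC, with differences between -1.002 and -0.48, whereas the 7 tested probes of the α receptors differed by between -0.03 and 0.12. None of the 11 passed an adjusted p of 0.05. At an unadjusted p under 0.05, 3 of the 11 were lower and 0 were higher, beside 8.43% and 4.38% of all probes. The 3 were a probe of Adrb3 and both probes of Adrb1. Their number was 2 without TAC replicate 1, and 1 without Sham replicate 2, Sham replicate 3 or TAC replicate 4. With the authors' table of all 8 arrays it was 4.

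**Figure D1:**
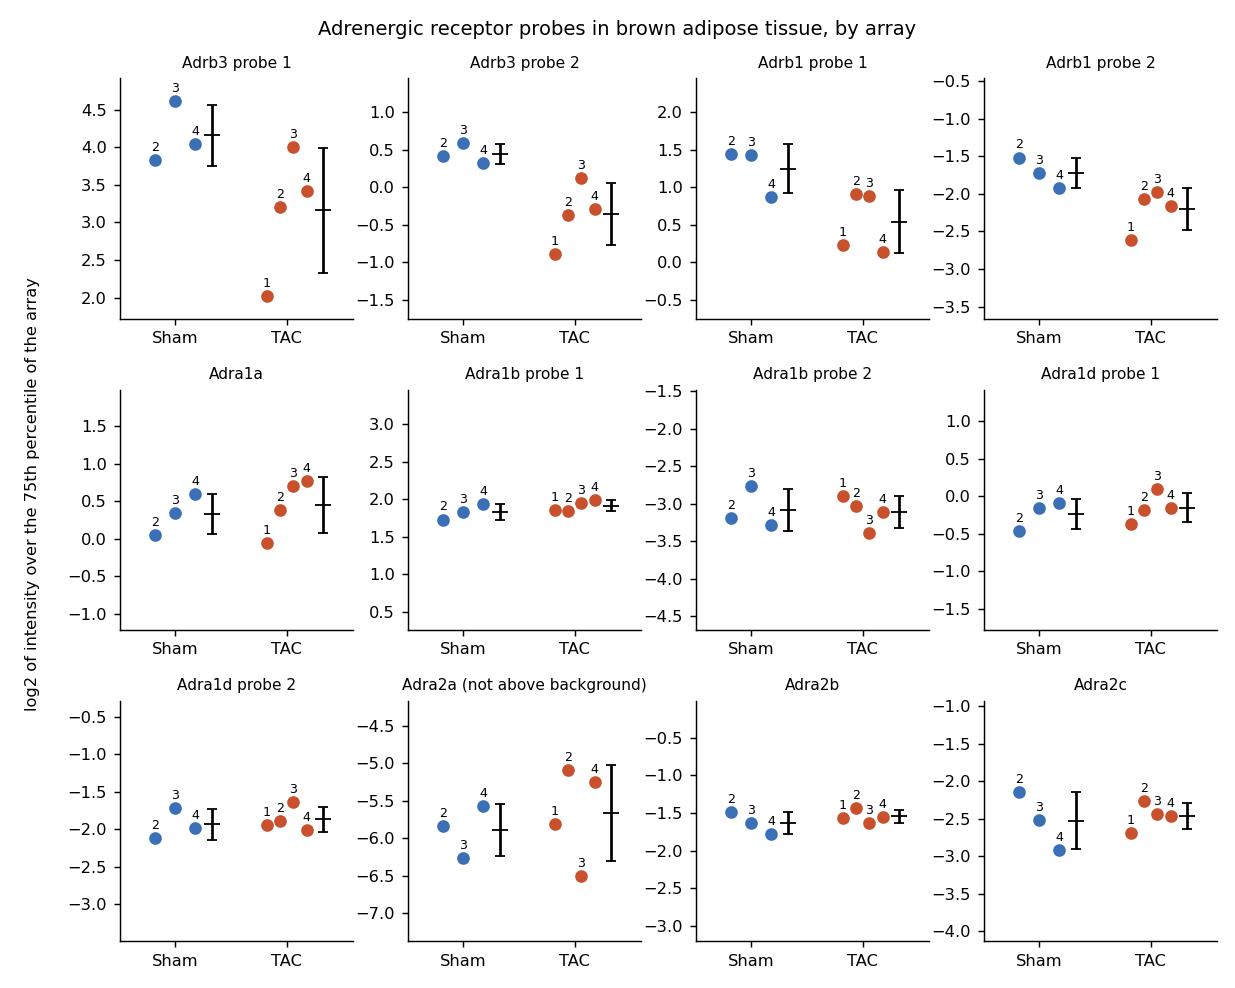
Level of each of the 12 receptor probes on the 3 Sham (blue) and 4 TAC (orange) scanner arrays, with the replicate number above each point and the mean and SD beside each group. Each panel has its own log2 axis, and the clearest separation is that of Adrb3 probe 2, where the lowest Sham array is at 0.33 and the highest TAC array at 0.12.

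Adrb3 encodes the β3 receptor, the main β receptor of rodent adipocytes. Its brighter probe (probe 1) was at 3.83, 4.62 and 4.05 on Sham replicates 2, 3 and 4. After TAC it was at 2.02, 3.20, 4.00 and 3.42 in replicates 1 to 4. The lowest value was that of TAC replicate 1, and TAC replicate 3 lay within the Sham range, so the groups overlapped. The mean was 4.16 ± 0.41 (SD, n = 3) after Sham and 3.16 ± 0.83 (SD, n = 4) after TAC. The difference was -1.002 (SE 0.45, 95% confidence interval -2.06 to 0.06), which put the TAC mean at 49.9% of the Sham mean, with a limma p of 0.0611 and an adjusted p of 0.411. Of all tested probes, 1.03% had a difference at least as low. Without TAC replicate 1 the difference was -0.62 (limma adjusted p = 0.414).

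The dimmer probe of Adrb3 (probe 2) separated the groups. It was at 0.42, 0.58 and 0.33 on the Sham arrays and at -0.89, -0.38, 0.12 and -0.30 on the TAC arrays. All TAC values were below all Sham values, as for 10.5% of the probes measured on all 7 arrays, whereas 5.59% of them had all TAC values above. The difference was -0.80 (SE 0.22, 95% confidence interval -1.33 to -0.28), with a limma p of 0.00869 and an adjusted p of 0.268. The 2 probes followed each other over the 7 arrays (Pearson's r = 0.95), although probe 1 was 13.2 times brighter in Sham BAT. Without TAC replicate 1, the difference of probe 2 was -0.63 (limma adjusted p = 0.225).

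The authors' table of all 8 arrays added Sham replicate 1, where Adrb3 was at 4.44 by probe 1 and at 1.04 by probe 2. The other Sham arrays read higher in this table than by scanner intensity. Sham replicates 2, 3 and 4 were there at 4.03, 4.80 and 4.24 by probe 1. By probe 2 they were at 0.62, 0.77 and 0.52. In this table the TAC values of probe 2 were again all below the Sham values, as for 6.29% of all probes, while probe 1 overlapped. The differences were -1.04 (limma adjusted p = 0.297) for probe 1 and -0.92 (limma adjusted p = 0.215) for probe 2.

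Adrb1 encodes the β1 receptor, which the heart uses to raise its rate and force and which brown adipocytes and their precursors also carry. Its brighter probe (probe 1) was at 1.44, 1.42 and 0.87 in Sham replicates 2, 3 and 4. In TAC replicates 1 to 4 it was at 0.23, 0.91, 0.89 and 0.13. TAC replicates 1 and 4 were below every Sham array, and TAC replicates 2 and 3 were close to Sham replicate 4, so the groups overlapped. The mean was 1.24 ± 0.33 (SD, n = 3) after Sham and 0.54 ± 0.42 (SD, n = 4) after TAC. The difference was -0.70 (SE 0.26, 95% confidence interval -1.30 to -0.10), or 61.5% of the Sham mean, with a limma p of 0.0283 and an adjusted p of 0.348. A difference at least as low was found for 3.11% of all tested probes. Leaving out TAC replicate 1 gave -0.60 for probe 1 (limma adjusted p = 0.409).

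The dimmer probe of Adrb1 (probe 2) was at -1.51, -1.72 and -1.92 on the Sham arrays and at -2.61, -2.06, -1.97 and -2.16 on the TAC arrays. Each TAC array was below each Sham array here, as for 10.5% of the probes measured on all 7 arrays. Sham replicate 1, however, at -1.87 in the table of 8 arrays, lay within the TAC range of that table. The difference was -0.48 (SE 0.18, 95% confidence interval -0.90 to -0.06), with a limma adjusted p of 0.349. With 8 arrays it was -0.66 (limma adjusted p = 0.278) for probe 1 and -0.41 (limma adjusted p = 0.336) for probe 2.

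The sequence before the start of Adrb1 is shown because it is the β receptor whose window the RefSeq promoter table holds. It covers 250 bases upstream of the start at chr19:56721867-56722116 on the plus strand of GRCm38.p6, with the core of the cyclic AMP response element (TGACG, or CGTCA on the other strand) in capitals.
Adrb1: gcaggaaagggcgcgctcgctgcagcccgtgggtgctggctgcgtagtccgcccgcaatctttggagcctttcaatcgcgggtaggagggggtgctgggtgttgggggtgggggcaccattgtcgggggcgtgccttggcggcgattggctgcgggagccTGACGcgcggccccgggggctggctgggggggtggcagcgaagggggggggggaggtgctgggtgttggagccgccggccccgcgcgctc
The motif, chosen after the sequences were seen, occurred 1 time, 90 bases before the start. It was present in 17.8% of the 32851 windows of this length. Of the 6 windows of 5 receptor genes in the table, those of Adrb1 and Adra2a held it and those of Adra1b, Adra2b and Adra2c did not. This describes the letters only, and Adrb3, Adra1a and Adra1d had no window.

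None of the α1 receptor probes differed by more than the spread of the arrays without a replicate block. Adra1a, a Gq-coupled receptor, was at 0.05, 0.34 and 0.59 on the Sham arrays and at -0.05, 0.38, 0.71 and 0.77 on the TAC arrays. Its lowest array was TAC replicate 1 and its highest was TAC replicate 4, so that TAC spanned the whole Sham range. The difference was 0.12 (SE 0.23, 95% confidence interval -0.41 to 0.66, limma adjusted p = 0.834).

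Adra1b, also Gq-coupled, was at 1.73, 1.83 and 1.94 on the Sham arrays and at 1.86, 1.85, 1.95 and 2.00 on the TAC arrays by probe 1. These were the closest values of any tested receptor probe among the TAC arrays (SD 0.07). The difference was 0.08 (SE 0.09, 95% confidence interval -0.13 to 0.29, limma adjusted p = 0.722), and probe 2 gave -0.03 (95% confidence interval -0.42 to 0.37). The 2 probes did not follow each other over the arrays (Pearson's r = -0.38, n = 7), and probe 1 was 30.2 times brighter in Sham BAT. Such ratios between probes of 1 gene are why the brightness of different receptors was not ranked as abundance.

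Adra1d, the third α1 receptor, was at -0.46, -0.16 and -0.09 on the Sham arrays and at -0.38, -0.18, 0.10 and -0.16 on the TAC arrays by probe 1. The groups overlapped, and probe 2 overlapped too. The differences were 0.08 (95% confidence interval -0.25 to 0.42) and 0.07 (95% confidence interval -0.25 to 0.39), with limma adjusted p-values of 0.822 and 0.850.

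The α2 receptors dampen cyclic AMP and, on sympathetic nerve endings, the release of noradrenaline, and 1 of the 3 was not detected. The probe of Adra2a was not well above background on any of the 7 arrays. Its intensity was between 5.90 and 14.6 units, below the lowest signal called well above background on each array (16.6 to 28.0 units), so no fold was computed. Adra2b was at -1.48, -1.64 and -1.77 on the Sham arrays and at -1.56, -1.43, -1.64 and -1.55 on the TAC arrays. Its difference was 0.09 (SE 0.10, 95% confidence interval -0.15 to 0.32, limma adjusted p = 0.732). Adra2c was at -2.15, -2.51 and -2.91 on the Sham arrays and at -2.70, -2.27, -2.44 and -2.46 on the TAC arrays. Its difference was 0.06 (SE 0.19, 95% confidence interval -0.39 to 0.51, limma adjusted p = 0.910), and both receptors overlapped between the groups. The sign of the small differences of Adra1a, Adra1d, Adra2b, Adra2c and Adra1b probe 2 turned under some alternatives, given in the closing section.

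**Figure D2:**
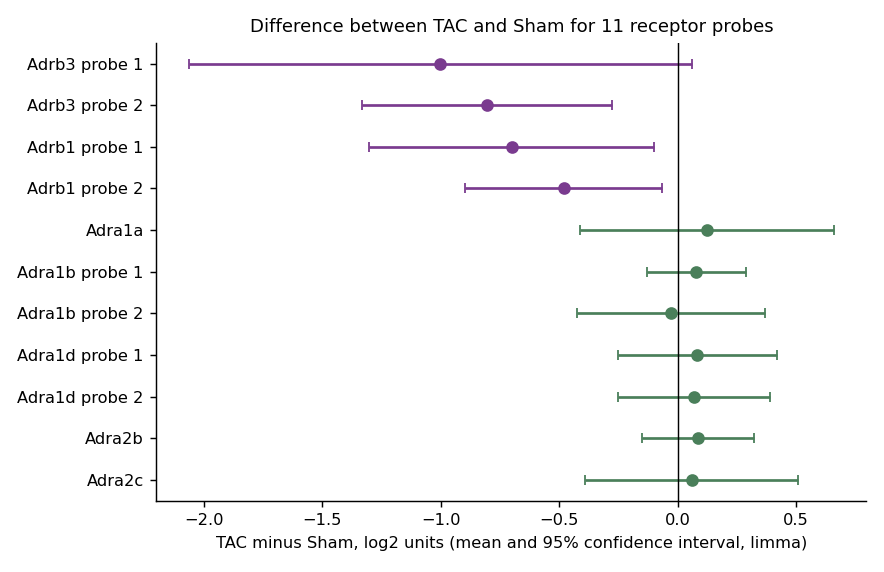
Difference between TAC and Sham in log2 units for the 11 tested receptor probes, as the mean and 95% confidence interval of limma (3 Sham and 4 TAC arrays). The 4 β receptor probes (purple) lie between -1.002 and -0.48 and the 7 α receptor probes (green) between -0.03 and 0.12, and the interval of Adrb3 probe 1 includes 0.

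Differences between 2 receptors on the same array do not depend on the scaling of that array. Relative to the Sham mean, Adrb3 probe 1 minus Adra1a was at -0.06, 0.44 and -0.38 on the Sham arrays and at -1.76, -1.02, -0.54 and -1.18 on the TAC arrays. All 4 TAC arrays were below all 3 Sham arrays in this measure. Adrb3 probe 1 minus Adra2b was between -0.48 and 0.46 on the Sham arrays and at -2.21, -1.16, -0.15 and -0.83 on the TAC arrays, and TAC replicate 3 lay inside the Sham range. Adrb1 probe 1 minus Adra1a was between -0.64 and 0.47 on the Sham arrays and between -1.55 and -0.38 on the TAC arrays, with overlap. Adrb3 probe 1 minus Adrb1 probe 1 was between -0.53 and 0.27 on the Sham arrays and between -1.13 and 0.37 on the TAC arrays, also with overlap. These pairs were chosen after the values were seen and were not tested, and no share over all pairs of probes is given beside them.

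Markers of several cell types moved on the same arrays. The mean of the 11 brown adipocyte markers relative to the Sham mean was -1.10, -0.22, -0.08 and -0.53 in the TAC arrays, by replicate number. Adrb3 probe 1 was at -2.14, -0.96, -0.16 and -0.74 on the same arrays, the same order from lowest to highest except that TAC replicates 2 and 4 changed places. Adrb3 minus the marker list was therefore at -1.04, -0.74, -0.08 and -0.22, with TAC replicates 3 and 4 inside the Sham range of -0.23 to 0.30. Adrb1 probe 1 minus the list was between -0.58 and 0.09 on the TAC arrays and between -0.33 and 0.30 on the Sham arrays. The list shares Ucp1, Dio2 and Elovl3 with the genes induced by adrenergic stimulation described further on, and on TAC replicate 1 these were at -1.17, -2.59 and -5.54. The other 8 markers averaged -0.35, -0.08, -0.02 and -0.10 on the TAC arrays, and Adrb3 minus these 8 was at -1.79, -0.89, -0.14 and -0.64 against -0.34 to 0.37 on the Sham arrays, with TAC replicate 3 inside the Sham range. In the list of 11, 10 genes were lower, and the median difference was -0.21. At an unadjusted p under 0.05, 2 of them were lower, beside 8.43% of all probes.

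The mean of the 8 macrophage markers was 1.42 above the Sham mean on TAC replicate 1, whereas the remaining TAC arrays ranged from -0.39 to -0.17. Adgre1, a defining macrophage receptor, was at 0.76 on TAC replicate 1 and between -1.27 and -0.34 on all others. The mean of the skeletal muscle markers was 1.67, 1.26, -0.70 and 1.71 in the TAC arrays, by replicate number. The TAC array with the highest Adrb3 level had the lowest muscle markers of its group. Among the Sham arrays the reverse was seen, as Sham replicate 3 had both the highest Adrb3 (0.45) and the highest muscle markers (0.94). All 8 muscle genes were higher on average, with 0 at an unadjusted p under 0.05 and a median of 1.04. The median differences were 0.22 for smooth muscle (6 of 7 higher), 0.11 for endothelium (6 of 7 higher), 0.04 for lymphocytes (4 of 4 higher, of 7 markers, the others too dim to test) and -0.10 for nerve and Schwann cells (4 of 6 lower). The lymphocyte and macrophage medians turned without TAC replicate 1, to -0.30 (3 of 4 lower) and -0.32 (7 of 8 lower). The part of these cell types in the receptor differences was not tested.

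**Figure D3:**
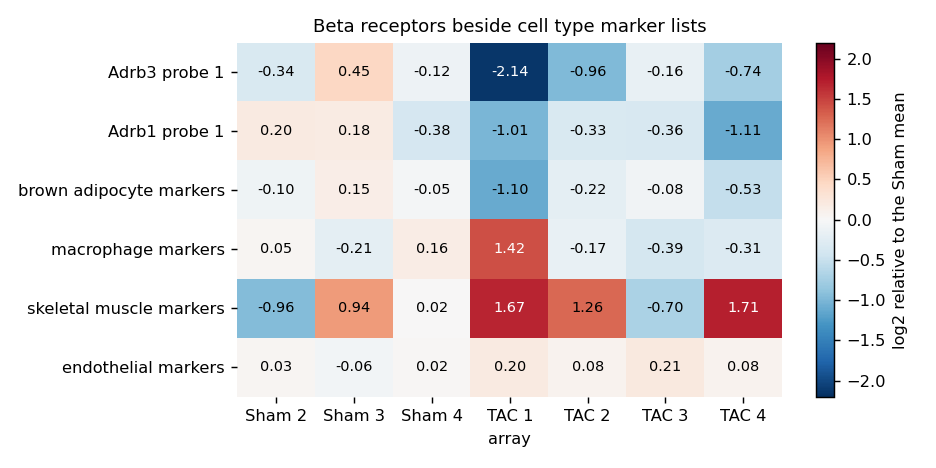
Level relative to the Sham mean, in log2 units, of Adrb3 probe 1, Adrb1 probe 1 and the mean of 4 cell type marker lists on each of the 7 scanner arrays. TAC replicate 1 combines the lowest Adrb3 (-2.14) and brown adipocyte values (-1.10) with the highest macrophage value (1.42).

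The genes whose level over the 7 arrays was most like that of Adrb3 probe 1 were Magoh, a subunit of the exon junction complex (Pearson's r = 0.994), Entr1 (0.992), C2cd2l (0.992), Psmd3, a proteasome subunit (0.991), and Ubxn2a (0.989), among 17865 probes. They moved less than Adrb3, with differences between TAC and Sham from -0.40 to -0.14. The arrays share the group difference and TAC replicate 1, without which r was between 0.962 and 0.982. In the table of 8 arrays r was 0.812 for Magoh and between 0.933 and 0.988 for the others, and with so many probes and 7 arrays high values are a description only.

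The genes through which the receptors act were then examined. Of 20 tested genes for G proteins, adenylyl cyclases and phospholipase C β, 13 were lower and 7 higher, with a median difference of -0.06, beside a median of -0.03 and 55.1% lower over all 14990 genes. At an unadjusted p under 0.05, 2 of the 20 were lower and 1 was higher, shares near the 8.43% and 4.38% of all probes. Adcy10, the soluble adenylyl cyclase, which G proteins do not control, was at -1.74, -0.97 and -1.10 on the Sham arrays and at -6.57, -3.02, -3.99 and -3.62 on the TAC arrays. It was not well above background on TAC replicates 1 and 3, so the fitted difference of -3.03 (limma adjusted p = 0.249) rests in part on values at background. It was -2.27 without TAC replicate 1, and its other 2 tested probes were lower as well.

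Adcy3, a membrane adenylyl cyclase, was at 0.82, 1.24 and 1.097 on the Sham arrays and at 0.18, 0.80, 0.82 and 0.40 on the TAC arrays. All TAC arrays were below all Sham arrays, as for 10.5% of all probes. The gap was narrow, between TAC replicate 3 (0.816) and Sham replicate 2 (0.823). The difference between the groups was -0.50 (limma adjusted p = 0.356). Without TAC replicate 1 it was -0.38 and no longer at an unadjusted p under 0.05. Adcy5, another membrane cyclase, differed in the other direction by 0.97 (limma adjusted p = 0.318), and 1 of its TAC arrays lay within the Sham range. Gnas, which encodes the stimulatory G protein subunit used by β receptors, differed by -0.07 (limma adjusted p = 0.836).

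Among 18 genes of protein kinase A and the phosphodiesterases that degrade cyclic AMP, 13 were lower and 5 higher (median -0.06). At an unadjusted p under 0.05, 1 was lower and 1 was higher, beside 8.43% and 4.38% of all probes. Pde4b, a phosphodiesterase, differed by -0.53 (limma adjusted p = 0.360). Prkar2a and Prkar1b, regulatory subunits of protein kinase A, differed by 0.31 (limma adjusted p = 0.383) and 0.30 (limma adjusted p = 0.471). Without TAC replicate 1, 0 genes in either direction were at an unadjusted p under 0.05.

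Of the 7 receptor kinases and arrestins, which switch activated receptors off, 4 were lower and 3 higher (median -0.10). The smallest p-values were those of the kinase Grk4 (-0.17), the arrestin Arrb1 (0.22) and the kinase Grk6 (0.14), with limma adjusted p-values of 0.417, 0.440 and 0.50. None was at an unadjusted p under 0.05, whereas Arrb1 was without TAC replicate 1 (0.27, limma adjusted p = 0.344).

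Of 11 genes that make, store, take up or degrade noradrenaline, 7 were tested, with 6 lower and 1 higher (median -0.11). Pnmt, which turns noradrenaline into adrenaline, and Maob, a monoamine oxidase, differed by -0.15 and 0.10 (limma adjusted p = 0.579 and 0.686). Th, the rate-limiting enzyme of noradrenaline synthesis, differed by -0.06, while Dbh, Ddc, Slc18a1 and the noradrenaline transporter Slc6a2 were too dim to test.

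Genes known to be induced by adrenergic stimulation were the list with the lowest median, -0.61, with 14 of 15 tested genes lower and 1 higher. Some of the 14 hardly differed, such as Ppargc1a (-0.009). Fos was at 0.20 on Sham replicate 2, against -2.32 and -3.60 on Sham replicates 3 and 4 and -3.58 to -2.72 after TAC. Junb was at -2.02 on Sham replicate 2, against -3.76 and -3.74 on Sham replicates 3 and 4 and -4.02 to -3.49 after TAC. At an unadjusted p under 0.05, 4 of the 15 were lower and 1 was higher (8.43% and 4.38% of all probes), and 0 passed the adjusted threshold. Nr4a2, an orphan nuclear receptor of the early response, was at 2.75, 2.83 and 2.54 on the Sham arrays and at 1.41, 2.35, 2.10 and 1.64 on the TAC arrays, a difference of -0.83 (SE 0.23, limma adjusted p = 0.268).

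Sik1, a kinase induced by cyclic AMP, was at 0.76, 1.46 and 1.003 on the Sham arrays and at -1.06, 0.25, 0.44 and -0.83 on the TAC arrays, a difference of -1.37 (limma adjusted p = 0.285). Ucp1 differed by -0.61 (SE 0.21, limma adjusted p = 0.336). In 5 of the 15, namely Nr4a2, Sik1, Ucp1, Elovl3 and Per1, the highest TAC value was below the lowest Sham value, beside 10.5% of all probes. The difference of Per1 was small (-0.09). Vegfa, a growth factor of vessels, was the member that was higher, by 0.26 (limma adjusted p = 0.362). Without TAC replicate 1, 12 of the 15 were lower, 4 of them at an unadjusted p under 0.05, and the median was -0.49.

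**Figure D4:**
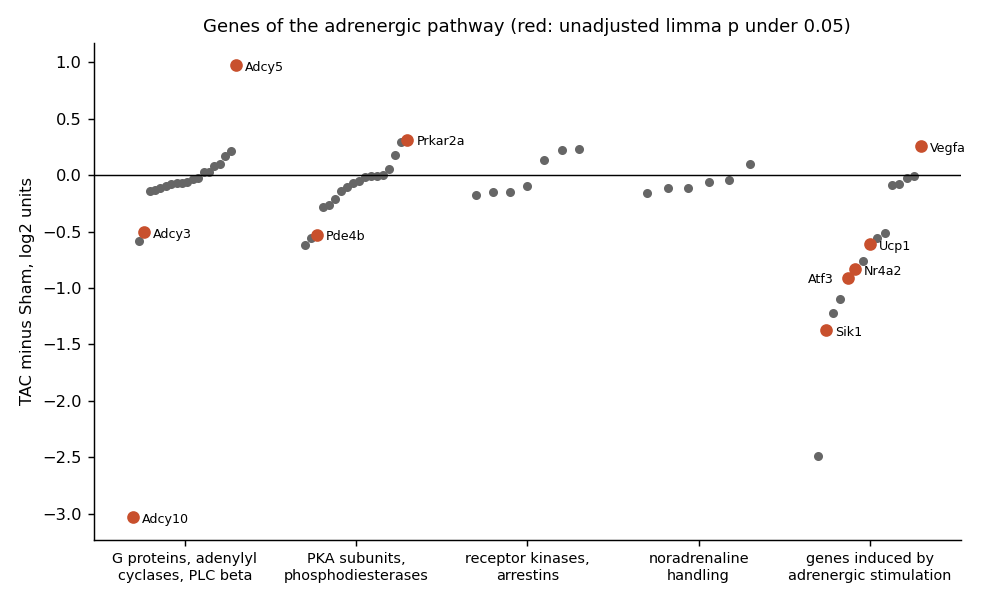
Difference between TAC and Sham in log2 units for each tested gene of the 5 pathway lists, sorted within a list, with genes at an unadjusted limma p under 0.05 in red and named, and with 1 gene of the noradrenaline list not shown. The medians are -0.06, -0.06, -0.10, -0.11 and -0.61 from left to right, and no gene passed an adjusted p of 0.05.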

How the data were processed

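BAT of 4 Sham and 4 TAC mice was measured on 1-colour Agilent arrays, labelled with Cy3. Per the labels, spots were extracted with Agilent Feature Extraction 10.7.1.1. The authors deposited background-subtracted intensities of 7 arrays, not scaled between arrays. Their table of 8 arrays, deposited with no stated method, holds by its values the same intensities as a multiple of each array's 75th percentile (100% of probes over 100 units within 1%). No deposited log2 values were used. All log2 values were computed here from the deposited intensities.

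Control spots and spots marked as outliers (134 to 191 per array) were left out, the 75th percentile of each array was subtracted, and spots of a probe were averaged. A probe counted as well above background on an array if at least 50% of its spots were, and was tested with 3 or more such arrays and 2 or more measured arrays per group (33364 probes). The first version of this rule, any spot not marked as an outlier, tested 33378 probes. It was replaced after results were seen, to match an earlier processing of these data, and was kept as an alternative. lmFit and eBayes of limma 3.58.1 (R 4.3.3) compared TAC with Sham, with Benjamini-Hochberg adjustment. The code was tested on simulated data.

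Symbols came from a RefSeq table of GRCm38.p6, which named 28026 of 55681 probes (50.3%, and 94.1% of those with a RefSeq accession). Array coordinates were not used, since the array was designed on another assembly. The brightest probe stood for a gene, except that every receptor probe is given. Members, lists and tests were chosen with earlier results of these data known. Named genes were all receptors, up to 3 genes of smallest p per pathway list, defining markers, and the 5 genes most like Adrb3 probe 1. Gnas, Th, Per1, Ppargc1a, Fos, Junb, Vegfa and the undetected genes were named after their values were seen. Some genes the rule gives are not reported here, though counts and medians of their lists include them. Lists covered G proteins and effectors, protein kinase A and phosphodiesterases, receptor kinases and arrestins, noradrenaline handling, genes induced by adrenergic stimulation, and markers of brown adipocytes, smooth muscle, endothelium, macrophages, lymphocytes, skeletal muscle, and nerve and Schwann cells.

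Alternatives were normexp (offset 50), median centring, quantile normalization, the table of 8 or the same 7 arrays, no filter or a strict filter on dim probes, outlier spots kept, a variance trend, array weights, the methods' t-test, a replicate block, each array left out, the table without TAC replicate 1, and averaging the probes of a gene. The lists without TAC replicate 1, the brown adipocyte list without its adrenergic-induced genes and the first detection rule were added after seeing the data. The precision is limited by the number of arrays. The p-values measure the spread between arrays, and with 1 array per mouse the spread of mice and of arrays cannot be told apart.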

Additional observations from a re-analysis of the deposited data

How the results depend on the processing

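Over the alternatives run, no receptor probe passed an adjusted p of 0.05 in any limma fit or in the methods' t-test (lowest adjusted p 0.149). The differences of the 4 β receptor probes stayed negative, from -1.28 to -0.62 and -0.96 to -0.63 for Adrb3 probes 1 and 2 and from -0.89 to -0.55 and -0.58 to -0.28 for Adrb1 probes 1 and 2. In all, 227 of 246 alternative values of receptor probes kept their sign and side of the threshold, and the 19 that turned were all of α receptors. The number of receptor probes at an unadjusted p under 0.05 was 3. It was 4 with the table of 8 arrays, normexp, the strict filter, the variance trend and array weights. It was 2 with the table without TAC replicate 1 and 1 with the methods' t-test. With an array left out it was from 1 to 4, with 1 without Sham replicate 2, Sham replicate 3 or TAC replicate 4. With the replicate number as a block (the replicate block) it was 5, both for the scanner values and for the 8-array table. These were the 4 β receptor probes, lower, and Adra1a, higher by 0.29 and 0.23 (limma adjusted p = 0.407 and 0.326). For the scanner values, TAC replicate 1 had no Sham array of its number and did not add to the difference. The receptor differences of that fit therefore equalled those without TAC replicate 1. Sham and TAC replicates 2, 3 and 4 shared a column of the slide as well as a number, so the block is also one of slide column. Same-numbered arrays deviated together with r of 0.0017, -0.026 and -0.021 (scanner values) and of 0.27, 0.020, 0.056 and 0.020 (table). The detection rule that tested 33378 probes gave 0 and 3 receptor probes at the adjusted and unadjusted threshold, as in the report.

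With an array left out, Adra1a ranged from -0.0131 to 0.29, Adra1b probe 2 from -0.13 to 0.13, Adra1d probes 1 and 2 from -0.0267 to 0.16 and from -0.0229 to 0.18, and Adra2c from -0.13 to 0.25. Normexp turned Adra1b probe 2 to 0.0246. The table of 8 arrays turned it to 0.0135, Adra1d probe 2 to -0.0145, Adra2b to -0.0128 and Adra2c to -0.0407, with the same values under its replicate block. Adra2b was also at -0.0103 in the table without TAC replicate 1. The causes were not tested.

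Over all probes, 0 were higher and 0 lower at an adjusted p under 0.05. Normexp gave 1 lower and array weights 1 lower. Leaving out an array gave 0 to 7 probes higher and 0 to 1 lower, all of them without TAC replicate 4. At an unadjusted p it gave 893 to 1562 higher and 1602 to 2995 lower, the fewest without Sham replicate 3. Without TAC replicate 1, chosen after seeing the data, the genes at an unadjusted p were 1 lower in place of 2 for G proteins and effectors, 0 lower and 0 higher in place of 1 and 1 for protein kinase A and phosphodiesterases, 1 higher in place of 0 for kinases and arrestins, and 0 higher in place of 1 for adrenergic-induced genes. Scaling moved the median difference over all probes between -0.06 and -0.02. Adra2a lay at background, so no change in it could be measured.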
